A study of Mus musculus with 6 samples.

Results

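The LIM-homeodomain and LIM-only factor genes are described here across 6 libraries of whole pancreatic islets from 14-week-old mice. The set was a list of 9 mouse symbols, 5 of LIM-homeodomain genes (Isl1, Isl2, Lhx1, Lmx1a and Lmx1b) and 4 of LIM-only genes (Lmo1, Lmo2, Lmo3 and Lmo4), and each of the 9 was found by its Ensembl ID among the 56980 gene IDs of the count table. The 3 control libraries carried floxed Ssbp3 alleles (SSBP3F/F). The 3 knockout libraries came from SSBP3F/F littermates that carried MIP-CreER as well, a Cre recombinase fused to an estrogen receptor domain and driven by the mouse insulin promoter. The floxed alleles were thus shared by both groups, and no library with MIP-CreER and intact Ssbp3 was analysed here, so the transgene and the loss of Ssbp3 cannot be told apart. Recombination by this transgene is directed to beta cells, whereas the libraries hold RNA of all islet cells. Tamoxifen dosing, the sex of the animals and whether a library pooled several mice are not stated by the labels. The p-values therefore rest on how far these 6 libraries differ, which can be partly technical.

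LIM domains are zinc-binding modules through which proteins bind other proteins. In LIM-homeodomain factors they stand beside a homeodomain that binds DNA, while LIM-only proteins consist of little else and bind DNA only through partners. Both kinds of protein bind the cofactor LDB1, for which they can compete, and SSBP proteins such as SSBP3 bind LDB1 and protect it from breakdown. ISL1 acts with LDB1 in the development and maturation of islet endocrine cells. The comparison therefore asks how the genes of the factors that meet SSBP3 in such complexes were expressed in islets of knockout mice.

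Library totals ran from 14907641 to 225428920 counts, and the shallowest library of each group, control 1 and knockout 1, held less than any other library. A count of 3, taken as the floor, stood for 0.0135 CPM in the deepest library and 0.194 CPM in the shallowest. CPM is a count scaled to a common library size, here with TMM factors, and such floors cover counting error only. Libraries are numbered after the count columns. The labelled tissue matched its defining genes. The 12 endocrine markers, among them Ins1, Ins2, Gcg, Sst and Chga, were all tested. They summed to 234458 to 283244 CPM in control and 191616 to 216159 CPM in knockout libraries. Ins2 alone averaged 136010 CPM in control and 94688 CPM in knockout libraries. At an edgeR adjusted p under 0.05, 2 of the 12 were higher in knockout libraries (Chga and Chgb) and 1 lower (Sst). Over all genes tested the shares were 3.72% and 3.35%. Acinar markers summed to 17115 to 33390 CPM in control and 13296 to 44832 CPM in knockout libraries, with overlap between the groups.

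The sequences upstream of 3 members are shown because the results turn on their contrast: Lmo1 was the member that fell, Isl1 the one with the highest level, and Lmo4 the LIM-only gene nearest to Lmo1 in level. Each run gives the 250 bases before the most upstream start in the RefSeq promoter table (build GRCm38.p6), read in the direction of the gene, at chr7:109175208-109175457 for Lmo1, chr13:116309689-116309938 for Isl1 and chr3:144205256-144205505 for Lmo4, all on the minus strand. Capitals mark TAAT, the core that many homeodomains bind, and CANNTG, the E-box bound by basic helix-loop-helix factors, searched on both strands.
Lmo1: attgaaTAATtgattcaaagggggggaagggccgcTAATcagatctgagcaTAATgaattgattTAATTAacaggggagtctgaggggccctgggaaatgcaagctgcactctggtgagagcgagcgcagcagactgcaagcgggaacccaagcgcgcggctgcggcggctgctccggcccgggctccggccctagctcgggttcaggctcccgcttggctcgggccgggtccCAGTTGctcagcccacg
Isl1: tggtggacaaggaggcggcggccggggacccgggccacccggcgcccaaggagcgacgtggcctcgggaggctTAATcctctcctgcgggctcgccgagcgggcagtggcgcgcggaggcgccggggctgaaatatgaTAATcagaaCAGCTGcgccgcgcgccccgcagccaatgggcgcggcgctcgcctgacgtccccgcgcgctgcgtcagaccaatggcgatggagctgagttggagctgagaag
Lmo4: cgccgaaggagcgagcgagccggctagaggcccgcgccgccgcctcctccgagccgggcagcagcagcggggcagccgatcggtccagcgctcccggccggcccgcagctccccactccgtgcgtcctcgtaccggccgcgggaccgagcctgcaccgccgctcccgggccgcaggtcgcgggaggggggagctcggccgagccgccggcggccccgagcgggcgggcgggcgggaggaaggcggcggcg
The Lmo1 window held 5 matches to TAAT, of which a pair overlap in TAATTA, and 1 to CANNTG. The Isl1 window held 2 and 1, and the Lmo4 window held 0 of either. Of 27025 windows of this length, 1 for each gene, 55.4% held TAAT, 66.0% held CANNTG and 5.85% held 5 or more matches to TAAT, a number chosen after the Lmo1 window was seen. These matches describe letters in a window and are not binding sites.

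Windows were listed for 8 of the 9 members, all but Lmo2. Beside the printed windows, TAAT matched 2 times before Lmo3, 1 time before Lhx1 and 1 time before Lmx1a, and did not match before Isl2 or Lmx1b. GATA, the core bound by GATA factors that join LMO2 and LDB1 in blood cells, matched 1 time before Isl1, 2 times before Lmx1a and 2 times before Lmx1b, beside 54.1% of all windows with a match. Most members had upstream windows rich in G and C. The share ran from 50.0% for Lmo3 to 82.4% for Lmo4 and was 61.2% for Lmo1 and 71.2% for Isl1, beside a median of 52% over all windows.

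In control islets the members spanned a wide range of levels. Compared as CPM per kilobase of exon, Isl1 was highest at 23.1 to 27.3, followed by Lmo1 at 5.46 to 8.20 and Lmo4 at 2.60 to 3.28, and these ranges did not overlap. Lmo2 at 1.42 to 2.45 overlapped Lhx1 at 1.09 to 1.64, and Lhx1 overlapped Lmx1b at 0.735 to 1.49, so the order among these neighbours was not larger than the spread between libraries. Lmo3 stood well below them at 0.1001 to 0.160. Among all genes tested with a known exon length, the mean control level of Isl1 per length lay at percentile 91.1, that of Lmo1 at 74.5, that of Lmo4 at 56.8 and that of Lmo3 at 10.6.

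In knockout islets Lmo1 no longer stood apart below Isl1. Its level per length of 1.25 to 2.72 CPM per kilobase overlapped those of Lmo4 (2.13 to 3.07), Lmo2 (1.22 to 2.44), Lhx1 (1.16 to 1.66) and Lmx1b (1.06 to 1.33), while Isl1 remained highest at 20.7 to 24.7. The plot of CPM by library gives each of the 9 genes on its own scale.

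**Figure D1:**
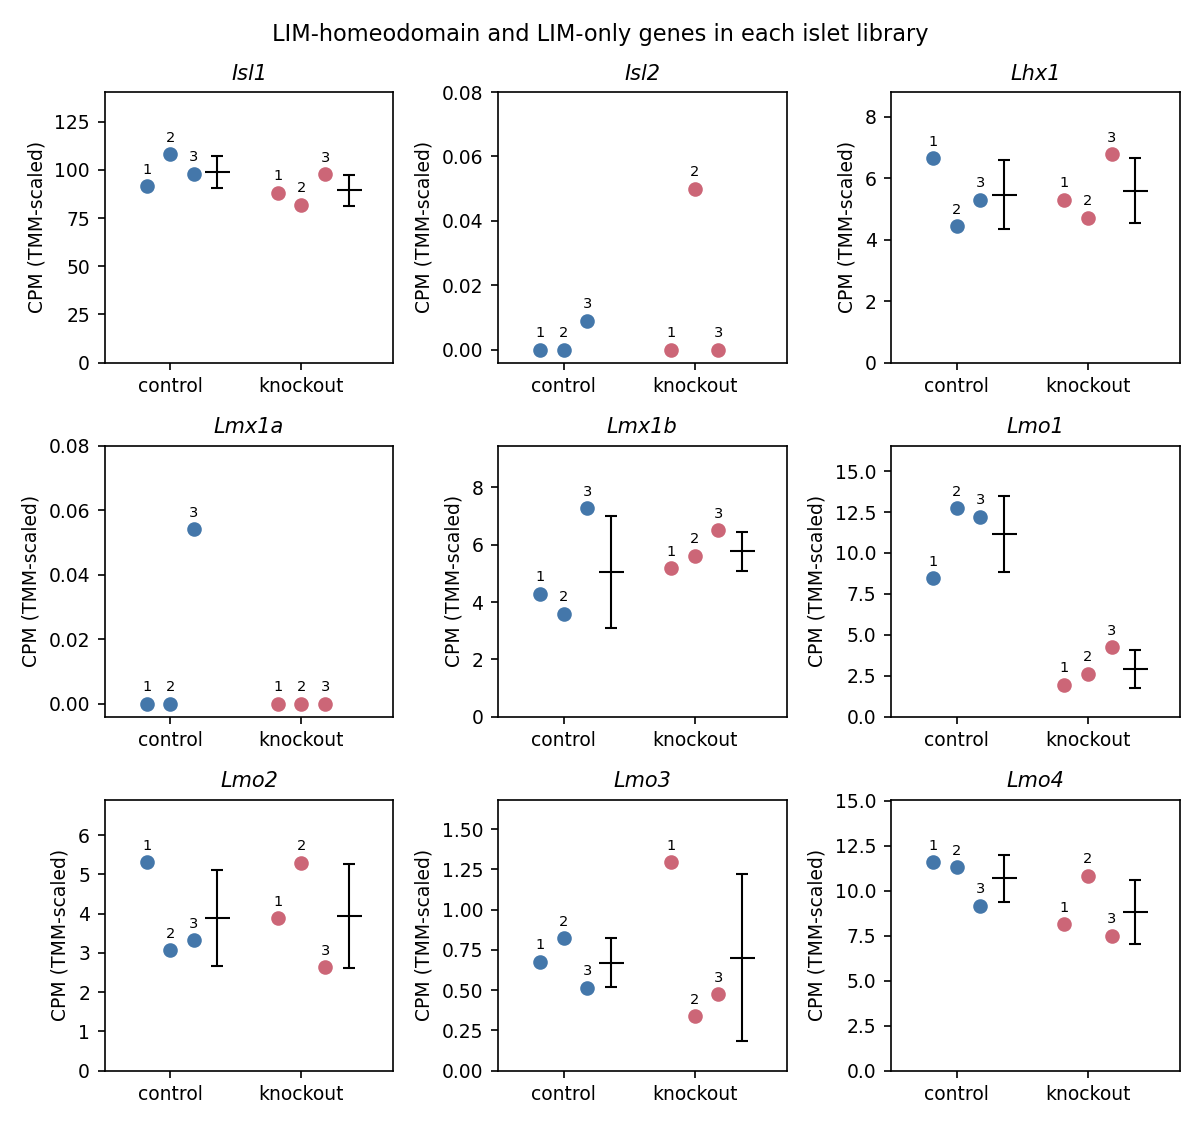
Expression of the 9 genes in each library, in CPM on TMM-scaled library sizes, with control libraries in blue, knockout libraries in red and library numbers above the points. Bars give the mean and SD of 3 libraries for the 7 tested genes, and Lmo1 alone among these separates the groups, with 8.47 to 12.7 CPM in control and 1.94 to 4.23 CPM in knockout libraries.

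Lmo1 fell to 0.263 of its control mean in knockout islets, and no other member was called. Isl1, the member with the highest level, had a log2 fold change of -0.15, and the interval of the scarce Lmo3 was wide. Of the 9 members, 7 passed the filter on low counts and were tested by edgeR, and 1 of the 7 had an adjusted p under 0.05. Over all 18558 genes tested, 7.07% were called, 3.72% as higher and 3.35% as lower. An unadjusted p under 0.05 was reached by 1 of the 7 members, beside 21.6% of all genes tested. The 7 members had a median log2 fold change of -0.03, beside 0.00 over all genes tested, and 1 of 7 separated the groups without overlap, beside 28.0% of all genes tested.

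Among the LIM-homeodomain genes, Isl1 (ENSMUSG00000042258) encodes the LIM-homeodomain factor of all endocrine cell types of the islet. In control 1, 2 and 3 its level was 91.5, 108 and 97.9 CPM, beside 88.2, 81.9 and 97.8 CPM in knockout 1, 2 and 3. Control 2 was the highest and knockout 2 the lowest library, and the groups overlapped. The log2 fold change was -0.15 (SE 0.116, 95% interval -0.40 to 0.10, edgeR adjusted p = 0.501), an interval that leaves out any fall of the size seen for Lmo1. Isl1 also made up most of the summed level of the 5 LIM-homeodomain genes per length, 89.8% to 93.7% in control and 89.2% to 90.4% in knockout libraries.

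Lhx1 (ENSMUSG00000018698), known for roles in kidney and head development, measured 6.66, 4.44 and 5.30 CPM in control and 5.30, 4.72 and 6.78 CPM in knockout libraries. The groups overlapped throughout (log2 fold change 0.05, 95% interval -0.48 to 0.58, edgeR adjusted p = 0.932). Lmx1b (ENSMUSG00000038765), a factor of dorsal limb patterning and of serotonergic neurons, measured 4.29, 3.58 and 7.26 CPM in control and 5.17, 5.62 and 6.50 CPM in knockout libraries. All knockout values lay inside the range of the controls, in which control 3 was 2.03-fold above control 2 (log2 fold change 0.18, 95% interval -0.42 to 0.79, edgeR adjusted p = 0.764).

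Isl2 and Lmx1a had too few counts to be tested. Isl2 (ENSMUSG00000032318), known from motor neurons, had 0, 0 and 2 counts in control and 0, 4 and 0 in knockout libraries. Lmx1a (ENSMUSG00000026686), a factor of dopaminergic neurons, had 12 counts in control 3 and 0 in each of the other 5 libraries. Those 12 counts equal 0.0541 CPM, less than the floors of control 1 (0.169 CPM) and knockout 1 (0.194 CPM) and more than those of the remaining libraries (0.0284 to 0.0375 CPM), so no difference between the groups can be read from either gene.

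Among the LIM-only genes, Lmo1 (ENSMUSG00000036111), first known as an oncogene of T-cell leukaemia and active in neural tissue, had 150, 1022 and 2710 counts in control 1, 2 and 3 and 30, 209 and 446 counts in knockout 1, 2 and 3. Scaled to depth these were 8.47, 12.7 and 12.2 CPM in control and 1.94, 2.61 and 4.23 CPM in knockout libraries. The lowest control value was that of the shallow control 1 and the highest knockout value that of knockout 3, and the groups stood well apart. The mean fell 3.81-fold, from 11.1 ± 2.32 to 2.93 ± 1.18 CPM (SD, n = 3), a log2 fold change of -1.89 (SE 0.283, 95% interval -2.51 to -1.28, edgeR adjusted p = 0.00207). Over all genes tested the 5th percentile of log2 fold changes was -1.14. Both depth classes gave a fall of similar size: the log2 ratio of knockout 1 to control 1 was -2.13, without a test, and the fit without these 2 libraries gave -1.86 (edgeR adjusted p = 0.0443). With fewer cells of a type and less RNA per cell, whole-islet counts fall alike, and they cannot be told apart here.

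Marker sums of several cell types, in which the most abundant genes weigh most, were lower in knockout libraries as well. The 10 beta cell markers summed to 188923 to 243958 CPM in control and 141820 to 159584 CPM in knockout libraries, with 3 of 10 called lower, 0 higher and none at 0 in all libraries. Ins1 and Ins2 made up most of the beta cell sum, and neither was called (edgeR adjusted p 0.109 and 0.234). The 8 markers of delta, PP and epsilon cells summed to 8677 to 14173 CPM and 6457 to 8666 CPM, with 3 of 8 lower and 0 higher. The 12 markers of Schwann cells and neurons summed to 50.5 to 64.2 CPM and 38.8 to 48.5 CPM, with 0 of the 11 tested called by edgeR and 2 at an unadjusted p under 0.05. The 9 alpha cell markers measured overlapped between the groups (21147 to 32517 CPM and 18853 to 23095 CPM), with 0 of 9 called and 4 at an unadjusted p under 0.05. The 10 duct markers summed to 2001 to 2545 CPM in control and 1322 to 1838 CPM in knockout libraries, although 2 of 10 were called higher and 0 lower and their median log2 fold change was 0.27. Spp1 held the largest part of the duct sum in control libraries. It averaged 1343.5 CPM in control and 634.8 CPM in knockout libraries, without a call (edgeR adjusted p = 0.0550). Over all genes tested, 3.35% were called lower, 3.72% were called higher and 21.6% reached an unadjusted p under 0.05. The part of these marker levels in the fall of Lmo1 was not tested. An antisense gene that overlaps the Lmo1 locus outside its exons, Gm44781, had 4 counts in control 3 and 0 in the other 5 libraries.

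Lmo2 (ENSMUSG00000032698) encodes a bridging factor of blood and endothelial development. It measured 5.31, 3.07 and 3.32 CPM in control and 3.88, 5.29 and 2.64 CPM in knockout libraries, so both groups held high and low libraries (log2 fold change 0.04, 95% interval -0.67 to 0.74, edgeR adjusted p = 0.965). Markers of both kinds of cells were detected in all libraries. The 12 endothelial markers summed to 305 to 365 CPM in control and 347 to 440.1 CPM in knockout libraries, with 1 called higher (Cdh5) and 1 lower (Egfl7). The 12 immune markers summed to 119 to 152 CPM and 124 to 228 CPM, with 0 of 11 called by edgeR and 1 at an unadjusted p under 0.05. Among all genes tested, 3.72% were called higher, 3.35% were called lower and 21.6% reached an unadjusted p under 0.05. Their part in the Lmo2 values was not tested.

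Lmo3 (ENSMUSG00000030226), a gene of brain and of neuroblastoma, was the scarcest member tested. It had 12, 66 and 114 counts in control and 20, 27 and 50 counts in knockout libraries, equal to 0.677, 0.821 and 0.514 CPM and to 1.29, 0.337 and 0.474 CPM. The shallow knockout 1 was the highest and knockout 2 the lowest of all 6, a 3.84-fold range within the group. The interval of its log2 fold change (-0.03, 95% interval -1.43 to 1.37, edgeR adjusted p = 0.986) covers more than a 2-fold change in either direction. The antisense gene A830011K09Rik, which overlaps the locus outside the exons of Lmo3, had 0 to 48 counts per library.

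Lmo4 (ENSMUSG00000028266), a widely expressed LIM-only gene known from breast epithelium and neurons, measured 11.6, 11.3 and 9.18 CPM in control and 8.15, 10.8 and 7.51 CPM in knockout libraries. Knockout 1 and 3 lay below all controls and knockout 2 did not (log2 fold change -0.27, 95% interval -0.70 to 0.17, edgeR adjusted p = 0.489). The plot of fold changes sets the intervals of the tested members beside those of the adaptors.

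**Figure D2:**
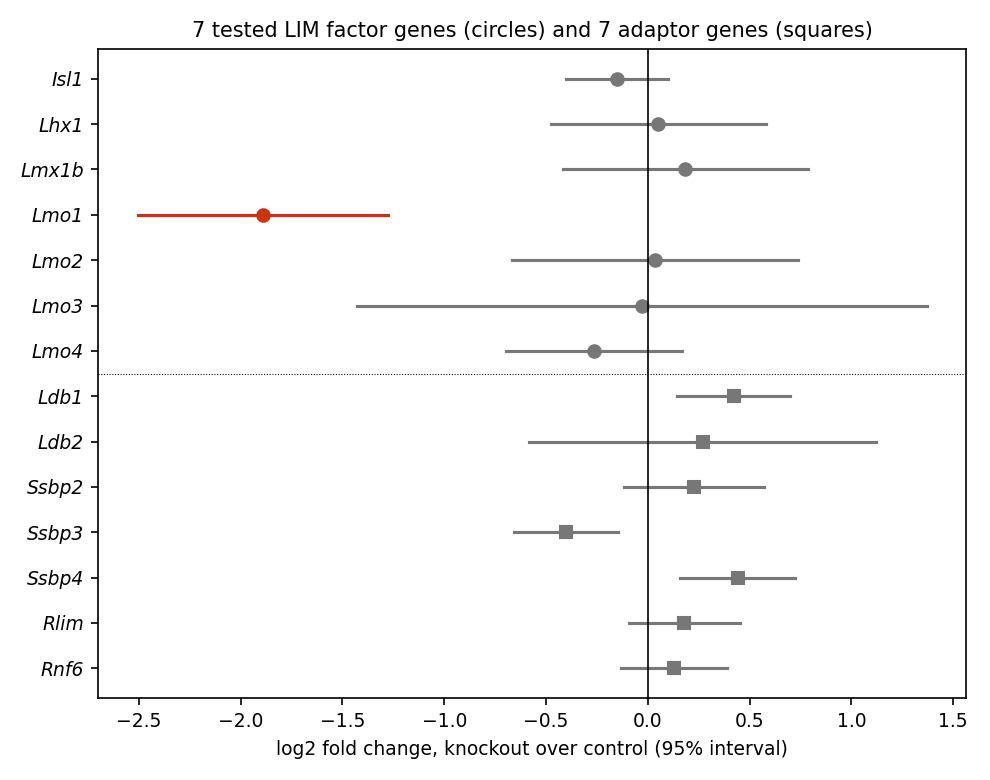
Log2 fold changes of knockout over control (x axis) with 95% intervals for the 7 tested LIM factor genes (circles) and 7 adaptor genes (squares), red where the edgeR adjusted p is under 0.05. Lmo1 at -1.89 is the only gene in red, the interval of Lmo3 is the widest, and those of Ldb1, Ssbp3 and Ssbp4 leave out 0 without a call.

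The summed level of the LIM-only genes was lower in every knockout library than in any control library. Per length, the 4 genes summed to 11.3, 13.0 and 12.1 CPM per kilobase in control and to 5.60, 7.26 and 6.16 CPM per kilobase in knockout libraries, without overlap. Lmo1 took 48.2%, 63.2% and 65.0% of that sum in control and 22.3%, 23.2% and 44.2% in knockout libraries. Lmo4 took 21.5% to 29.0% in control and 34.5% to 42.3% in knockout libraries, and in knockout 1 and 2 it exceeded Lmo1, with a ratio of Lmo1 to Lmo4 per length of 0.542 and 0.548. The ratio was 1.28 in knockout 3 and 1.66 to 3.03 in control libraries. The lower sums and these shares follow from the fall of Lmo1, as Lmo2, Lmo3 and Lmo4 each overlapped between the groups. Neither the sums nor the shares were tested separately.

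**Figure D3:**
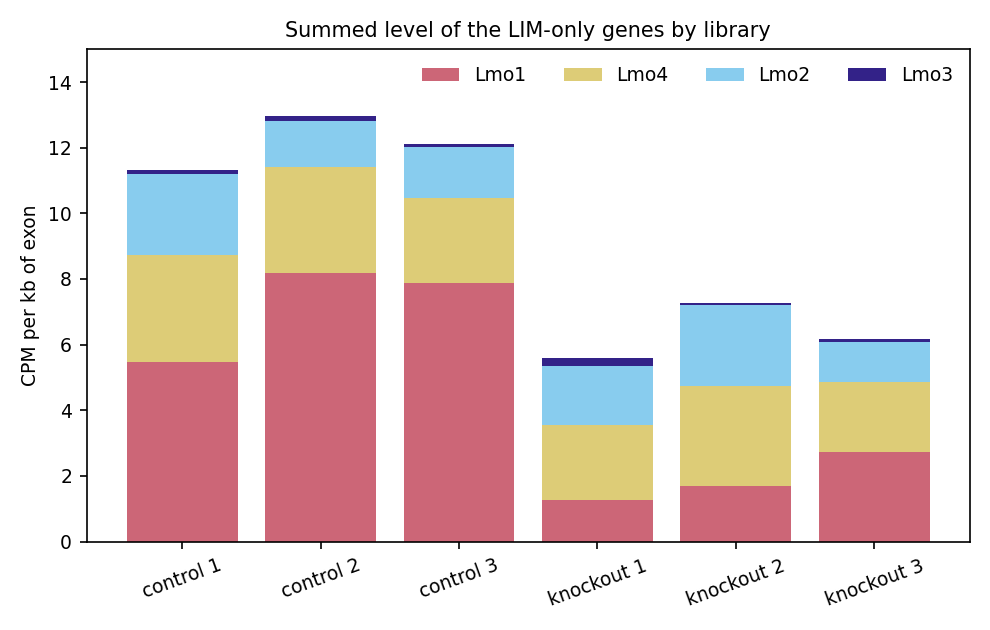
Summed level of the 4 LIM-only genes in each library, in CPM per kilobase of exon, stacked by gene. Lmo1 fills 5.46 to 8.20 CPM per kilobase of the control bars and 1.25 to 2.72 of the knockout bars, while the segments of Lmo4, Lmo2 and Lmo3 overlap between the groups.

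The genes of proteins that join LIM factors in complexes were not called in the main analysis. Of the 7 adaptor genes, 0 were called by edgeR and 3 had an unadjusted p under 0.05. The shares over all genes tested were 7.07% and 21.6%. Ldb1, the cofactor that binds LIM domains, measured 59.0, 60.2 and 66.3 CPM in control and 97.7, 78.1 and 73.3 CPM in knockout libraries. Its log2 fold change was 0.42 (95% interval 0.14 to 0.70, edgeR adjusted p = 0.0679). The targeted gene Ssbp3 had a log2 fold change of -0.40 (95% interval -0.66 to -0.15, edgeR adjusted p = 0.0581), counts that cover the whole gene in all islet cells. Its paralogue Ssbp4 measured 65.1, 81.3 and 75.7 CPM and 113, 104 and 86.2 CPM (log2 fold change 0.44, edgeR adjusted p = 0.0618). For these 3 genes the groups did not overlap, as was the case for 28.0% of all genes tested. Under 18 alternative settings, Ldb1, Ssbp3 and Ssbp4 were called in 4, 7 and 6. Ldb2, Ssbp2 and the ubiquitin ligase genes Rlim and Rnf6 differed by log2 fold changes of 0.27, 0.23, 0.18 and 0.13 without a call (edgeR adjusted p 0.756, 0.451, 0.453 and 0.598). As a ratio of levels per length, Isl1 to Ldb1 was 1.80, 2.09 and 1.72 in control and 1.05, 1.22 and 1.55 in knockout libraries, with no test made.

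The other 7 LIM-homeodomain genes of the mouse were scarce. Lhx2, Lhx8 and Lhx9 had 0 counts in all libraries, and 2 of the 7 were tested, with 0 called by edgeR and 1 at an unadjusted p under 0.05. Lhx3, a factor of pituitary and motor neurons, measured 0, 0.0498 and 0.0902 CPM in control and 0.776, 0.300 and 0.114 CPM in knockout libraries (log2 fold change 2.59, 95% interval 0.13 to 5.05, edgeR adjusted p = 0.205). Its highest value was that of the shallowest library, and control 1, at 0, had a floor of 0.169 CPM. Lhx6, a factor of interneurons and tooth development, measured 0, 0.548 and 0.275 CPM in control and 0.906, 1.37 and 0.228 CPM in knockout libraries, a range that overlapped that of Lmo3. Its groups overlapped as well (log2 fold change 1.44, 95% interval -0.49 to 3.38, edgeR adjusted p = 0.390). Of 13 DNA-binding partners of such complexes, among them Tal1, Gata2, Tcf3 and Neurod1, 11 were tested, with 0 called and 0 at an unadjusted p under 0.05. For comparison, edgeR called 7.07% of all genes tested, and 21.6% reached an unadjusted p under 0.05. Of the 27 genes in these 3 lists, 20 passed the filter on low counts. Among them 3 were called by DESeq2 (Ldb1, Ssbp3 and Ssbp4) and 1 by limma-voom (Ssbp3). DESeq2 called 2080 of all 18558 genes that passed, beside 1312 called by edgeR.

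Of 14 genes described as ISL1 or LDB1 targets in islets, 4 fell and 0 rose by edgeR, with a median log2 fold change of -0.49. Over all genes tested, 3.35% were called lower and 3.72% higher. The 4 were G6pc2, Mafa, Ucn3 and Sst, with log2 fold changes of -1.22, -1.15, -0.80 and -0.85 (edgeR adjusted p 0.00175, 0.0156, 0.0176 and 0.0223). Mafa is a transcription factor of mature beta cells, Ucn3 and Sst encode peptide hormones and G6pc2 a glucose-6-phosphatase subunit. G6pc2, Mafa and Ucn3 are also the 3 beta cell markers that were called, and Sst is 1 of the 3 called markers of delta, PP and epsilon cells, so these calls are not separate from the lower marker sums given above, and the part of cell makeup was not tested. The count of called targets was 1 without control 1, 1 without knockout 1, 2 without knockout 2 and 0 without both shallow libraries, where Lmo1 was still called. Calls over all genes, 1312 in the main analysis, were also fewer without control 1, without knockout 1 and without both shallow libraries.

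LIM domains also occur in proteins of the cytoskeleton. Of 39 such genes, 37 were tested, of which 3 rose, 1 fell and 33 were not called, with a median log2 fold change of 0.17. Over all genes tested, 3.72% were called higher and 3.35% lower. Fhl1, which encodes a protein made almost wholly of LIM domains and abundant in muscle, fell from 25.7 ± 3.04 to 13.5 ± 1.10 CPM (SD, n = 3; edgeR adjusted p = 0.00326). Limk2, a kinase that acts on the actin regulator cofilin, rose from 34.3 ± 3.98 to 53.6 ± 6.15 CPM (edgeR adjusted p = 0.0139). Lpp, of focal adhesions, and Lasp1, an actin-binding protein gene, rose with log2 fold changes of 0.54 and 0.48 (0.0191 and 0.0331 as edgeR adjusted p). Limk2 lost its call without control 1 (0.0648) or knockout 1 (0.0657), Lpp without control 1, 2 or 3 or knockout 2 (0.0545, 0.0744, 0.0510 and 0.0523), and Lasp1 without control 1 or 2 or knockout 1 or 2 (0.133, 0.0742, 0.0569 and 0.135). Without both shallow libraries none of the 4 was called (0.0876 for Fhl1, 0.183 for Limk2, 0.104 for Lpp and 0.170 for Lasp1), and this was the one alternative in which Fhl1 lost its call.

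Because LMX1 factors act in serotonin-producing cells elsewhere, 14 serotonin genes were read beside Lmx1a and Lmx1b. Of 12 tested, 3 rose (Tph1, Tph2 and Ddc) and 0 fell by edgeR, beside 3.72% and 3.35% of all genes tested. An unadjusted p under 0.05 was reached by 6 of the 12, beside 21.6% of all genes tested. The other 3 of these 6, named after their values were seen, had negative log2 fold changes without a call: Maob -0.44, the vesicular transporter gene Slc18a2 -0.91 and Fev, a transcription factor of serotonergic neurons, -0.43 (edgeR adjusted p 0.1003, 0.144 and 0.215). Maob was called lower in 4 of 18 alternatives, 1 of them without knockout 3 (0.0183), and Slc18a2 and Fev in 0. Tph1 had 0, 10 and 16 counts in control and 180, 640 and 670 counts in knockout libraries. Its log2 fold change was 6.68 (95% interval 5.67 to 7.68, edgeR adjusted p = 7.86e-06), and its call held in each of 18 alternatives. Tph2, with a log2 fold change of 1.96, lost its call without both shallow libraries (0.0566). Ddc, the decarboxylase of serotonin and dopamine synthesis, rose from 221 ± 19.7 to 367 ± 49.4 CPM (SD, n = 3; edgeR adjusted p = 0.00660, and 0.149 without both shallow libraries). In the same libraries Lmx1b was not called. Lmx1a had 0, 0 and 12 counts in control and 0, 0 and 0 counts in knockout libraries, too few to be tested.

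Genes with a pattern like that of Lmo1 were sought among 12912 genes by the root mean square difference, over the 6 libraries, of log2 CPM centred on the control mean. The 3 closest were Lgals12, a galectin gene (difference 0.221), Pdyn, which encodes the precursor of dynorphin opioid peptides (0.231), and Col27a1, a fibrillar collagen gene (0.245). Lgals12 measured 6.77, 8.56 and 7.30 CPM in control and 1.42, 2.41 and 3.07 CPM in knockout libraries. Pdyn measured 229.9, 293 and 447 CPM and 49.5, 84.1 and 107 CPM, and Col27a1 5.87, 10.4 and 10.4 CPM and 1.75, 2.62 and 2.54 CPM. In each of the 3 the lowest library of all was knockout 1, as for Lmo1. They were chosen by likeness, so their falls describe the choice and support nothing further.

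**Figure D4:**
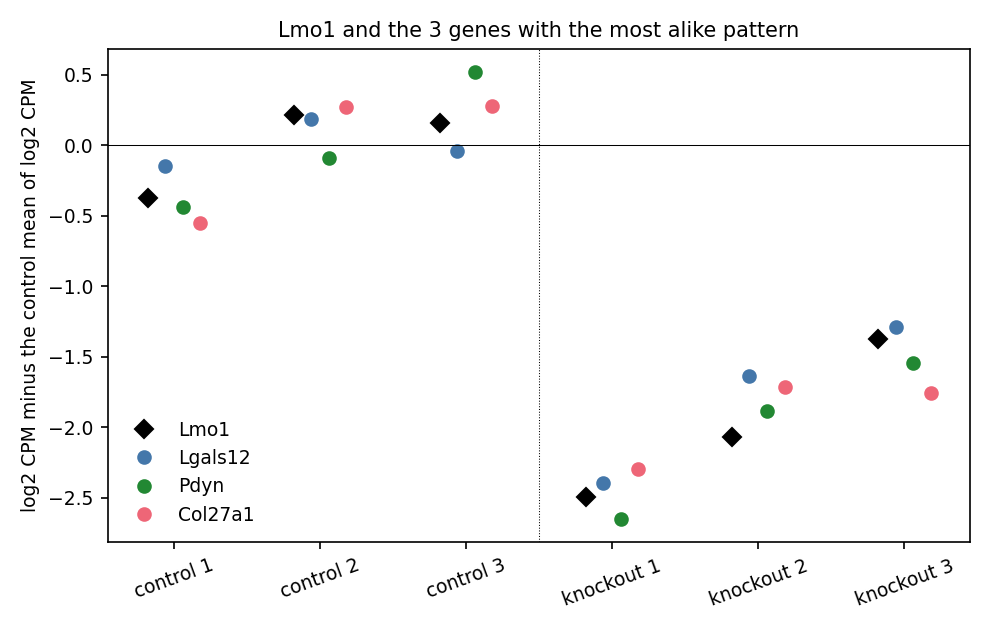
Log2 CPM of Lmo1 (black diamonds) and its 3 most alike genes in each library, drawn without a prior count and minus each gene's mean over the control libraries. All 4 genes lie lowest in knockout 1, where Lmo1 measured 1.94 CPM and Pdyn 49.5 CPM.

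The call of Lmo1 held in each of 18 alternatives, with log2 fold changes of -2.26 to -1.71 and edgeR, DESeq2 or limma-voom adjusted p of 2.17e-11 to 0.0443. Thinning all libraries to 14907641 counts gave -2.03, and offsets for exon length and GC content gave -1.74. The other 6 tested members were called in 0 of the alternatives that could test them, and their lowest adjusted p was 0.264, for Lmx1b without control 3.

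**Figure D5:**
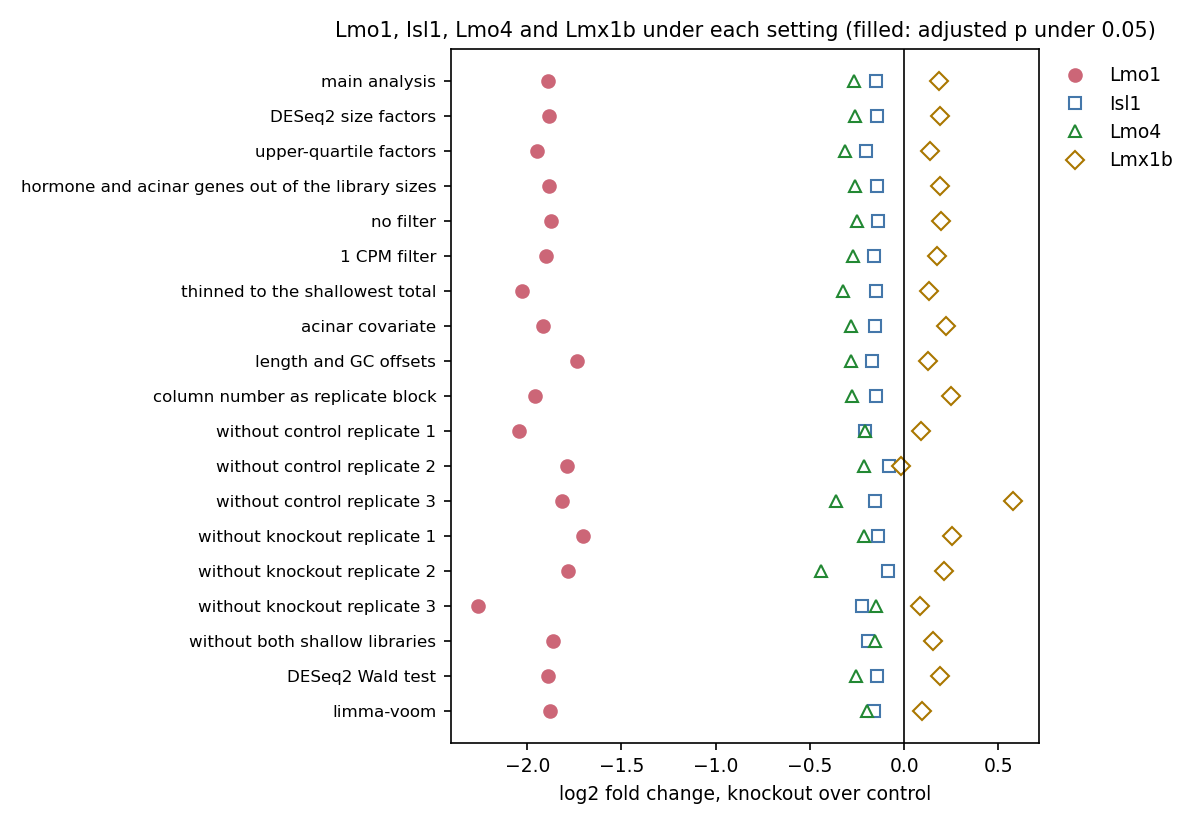
Log2 fold changes of knockout over control (x axis) for Lmo1, Isl1, Lmo4 and Lmx1b in the main analysis and 18 alternatives (rows), filled where the adjusted p is under 0.05. Lmo1 stays between -2.26 and -1.71 and is filled in each row, while Isl1 lies between -0.22 and -0.08 and is open in each.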

How the data were processed

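RNA of whole islets was measured in 3 control and 3 knockout libraries. The build GRCm39 (mm39) and the tools STAR 2.7.3a, featureCounts, Trim Galore 0.6.7 and FastQC 0.11.9 are listed per the submitters' processing notes. The authors deposited unnormalized gene counts, and their annotation release, strand setting and handling of read pairs are not stated there. Even numbers made up 62.3% to 73.2% of each library's nonzero counts, so reads rather than fragments may have been counted. Symbols were matched for 52073 of 56980 IDs. Exon lengths and GC content came from GENCODE M21 (GRCm38) by gene ID, for 97.6% of genes tested, so levels per length are approximate.

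In R 4.3.3, edgeR 4.0.16 (filterByExpr, TMM factors, robust quasi-likelihood test) compared knockout with control over 18558 genes with Benjamini-Hochberg adjustment, and calls have an adjusted p under 0.05. Log2 fold changes are knockout over control. DESeq2 1.42.0 and limma-voom (limma 3.58.1) were among the alternatives. This procedure was run on simulated counts drawn independently for each library. The simulation held no differences in cell makeup and no pairing, so it does not bear on these. Named genes were the 9 members, the 7 adaptors, called genes of 5 lists (up to 5 a list) and the 3 genes most like each called member (log2 CPM with prior count 2, at least 1 CPM in a group, no Gm, Rik or LOC name). Lhx3 and single markers were named after their values were seen. Members and lists were chosen with earlier results of these data known. Upstream windows came from RefSeq (GRCm38.p6).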

Additional observations from a re-analysis of the deposited data

How the results depend on the processing

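The count of called members was 1 in all 18 alternatives. Calls among the 27 other LIM-homeodomain, adaptor and DNA-partner genes, 0 in the main analysis, numbered 1 with upper-quartile factors, with a 1 CPM filter and with limma-voom, 2 without a filter, with length and GC offsets and with the column number as a replicate block, 3 with DESeq2 and with the acinar covariate, and 0 to 2 when each library was left out. The 4 calls among ISL1 and LDB1 targets became 7 without a filter and with the block (6 lower and 1 higher each), 9 with the acinar covariate (8 lower and 1 higher), 2 with length and GC offsets, 0 without both shallow libraries, and 1 to 5 when each library was left out. Directions of members near 0 turned. With upper-quartile factors the log2 fold changes of Lhx1 and Lmo2 were -0.0022 and -0.012, and with the acinar covariate that of Lmo2 was -0.033. When each library was left out, they ran from -0.12 to 0.20 for Lhx1, -0.016 to 0.58 for Lmx1b, -0.26 to 0.30 for Lmo2, -0.71 to 0.34 for Lmo3 and -0.042 to 0.49 for Ldb2. The causes were not tested. Of the genes most like Lmo1, Col27a1 was called in all 18 alternatives, Lgals12 in 17 (0.0602 without both shallow libraries) and Pdyn in 12, with its call lost without control 2, knockout 2 or knockout 3 (0.159, 0.122 and 0.0888), and also without a filter (0.0962), with the acinar covariate (0.0890) and with length and GC offsets (0.0624). The block was added after seeing that control 1 and knockout 1 were both shallow. Titles share too few numbers to pair samples, and deviations of same-numbered columns correlated by 0.0162 to 0.0806 across genes. The acinar marker sums of columns 1, 2 and 3 kept the same order in both groups. They were 21141, 33390 and 17115 CPM in control and 22093, 44832 and 13296 CPM in knockout libraries. Whether same-numbered columns shared a batch was not tested. The block left the call of each tested member as it was. All genes called numbered 1312 in the main analysis, 2153 without a filter, 2105 with the block, 1988 with the acinar covariate, 2080 with DESeq2, and 661, 519, 610 and 124 without control 1, control 2, knockout 1 and both shallow libraries. Depth limits Isl2 and Lmx1a.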
